A study of Mus musculus with 12 samples.

Results

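Forebrain of adult Notch knockout mice exposed to valproic acid before birth was compared with forebrain of unexposed wildtype mice, so that deletion and exposure acted at once in the contrast. The comparison used 3 libraries of exposed knockout and 3 of unexposed wildtype, 6 of the 12 libraries of the series, chosen by their genotype and treatment labels and by no measured value. The remaining libraries, 3 of exposed wildtype and 3 of unexposed knockout, entered the same model and served to place each gene's value. The knockout genotype is labelled htr3a Notch KO and described as conditional. The labels do not say which Notch gene was deleted, which Cre line was used, the dose or day of exposure, or the sex of the mice. They number the libraries within a group without stating that these are different animals, and every p-value here measures the spread between libraries only. All mice without valproic acid are labelled by genotype alone, with no vehicle named.

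Notch receptors are cleaved after they bind a ligand on a neighbouring cell, and the released part joins the DNA-binding protein Rbpj to switch on Hes and Hey repressor genes, which hold neural progenitors back from becoming neurons. Valproic acid is an antiepileptic drug that inhibits histone deacetylases, and its use in pregnancy raises the risk of autism in the child, which is why exposed rodents serve as a model. Htr3a encodes a subunit of the ion-channel serotonin receptor and marks interneurons born in the caudal ganglionic eminence, part of the embryonic ventral forebrain.

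Total counts per library ranged from 18139178 to 24944681 in the unexposed wildtype and from 18935991 to 22494104 in the exposed knockout. Of 17995 genes tested with edgeR's quasi-likelihood test, 182 passed the Benjamini-Hochberg threshold of 0.05, which is 1.01% of those tested. Of these, 53 rose in exposed knockout (0.295% of tested genes) and 129 fell (0.717%). An unadjusted p below 0.05 was reached by 2838 genes. All 3 exposed knockout libraries lay above all 3 wildtype libraries for 1812 genes (10.1%) and below them for 1979 (11.0%). The median log2 fold change of all tested genes was 0.01. Most of the called changes were small: 17 genes passed the test with a log2 fold change of 1 or more in size. Shared striatal genes, which mark a part of the forebrain, were abundant in all 6 libraries, with a mean log2 CPM of 6.28 to 6.77. Astrocyte genes, which do not mark a region, were at 7.85 to 8.16. Levels below are CPM, counts per library scaled to a common total, in the order of library 1, 2 and 3.

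**Figure D1:**
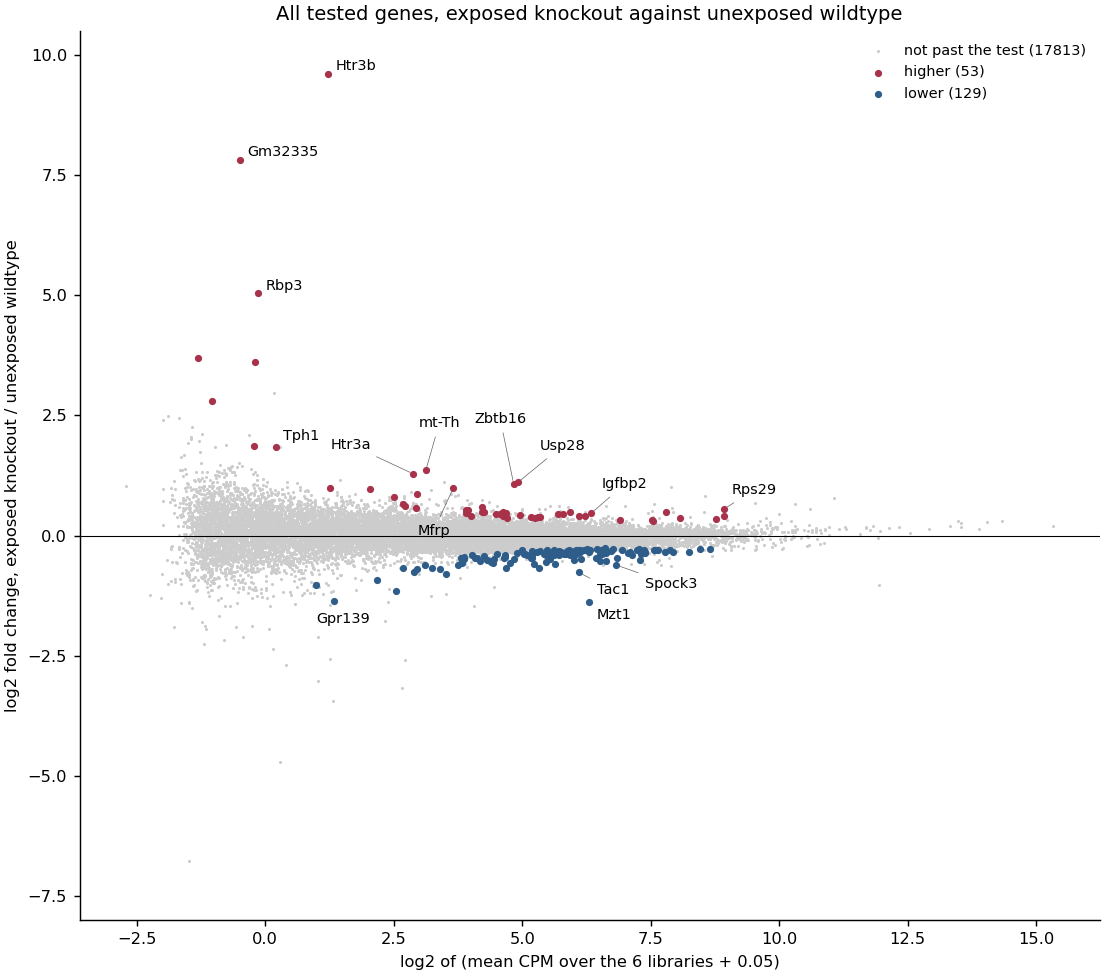
Each point is a tested gene, with log2 of its mean CPM over the 6 libraries on the horizontal axis and its log2 fold change, exposed knockout over unexposed wildtype, on the vertical axis. The 53 genes that rose and 129 that fell are coloured, most fallen genes lie within a log2 unit of 0, and Htr3b, Gm32335 and Rbp3, which have few or no wildtype counts and whose fitted values are no bounds, lie at the top.

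The Notch genes of the knockout label were examined first. No Notch gene differed past the test. Notch1, the receptor best known in neural progenitors, was measured at 20, 16.9 and 16.6 CPM in wildtype and at 17.5, 17.9 and 21.7 in exposed knockout. These ranges overlapped, and the log2 fold change was 0.10 ± 0.11 (SE), with an adjusted p of 0.712. Notch2 gave 0.19 ± 0.12 (adjusted p = 0.485), Notch3, found mainly in vascular smooth muscle, 0.36 ± 0.18 (adjusted p = 0.342) and Notch4, an endothelial receptor, 0.08 ± 0.16 (adjusted p = 0.853). Rbpj, the DNA-binding partner of all Notch receptors, gave 0.04 ± 0.10 (adjusted p = 0.879). A count over a whole gene does not show the loss of 1 exon, and in whole forebrain a deletion in a minority of cells cannot be told apart from no deletion, so the label was neither borne out nor contradicted by these genes.

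None of 11 tested Notch receptors and ligands, 32 regulators of the pathway or 20 target genes passed the test. Their median log2 fold changes were 0.14, 0.10 and −0.03, and without exposed knockout library 3 they were 0.04, 0.07 and 0.01. As 1.01% of all tested genes were called, lists this short can hold no call without being unlike genes at large. Among the targets, Hes1, a progenitor repressor, was at 9.06 ± 0.26 CPM in wildtype and 9.09 ± 1.58 in exposed knockout (SD, n = 3 each). Hes5, a Notch-induced repressor of neural progenitors, was at 11.7, 12.1 and 10.4 CPM in wildtype and at 9.14, 8.81 and 9.36 in exposed knockout. All 3 exposed libraries lay below all 3 wildtype libraries, and the log2 fold change of −0.32 ± 0.23 did not pass (adjusted p = 0.544). Hey1, a related repressor, likewise showed no overlap (50.8 to 55.8 against 45.9 to 49.4 CPM) and did not pass (log2 fold change −0.16 ± 0.07, adjusted p = 0.286). The list had no common direction, with 9 of the 20 targets higher and 11 lower. Of them 2 lay below wildtype without overlap and 3 above it, against 11.0% and 10.1% of all tested genes.

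The 250 bases before the transcription start, from RefSeq on GRCm38.p6, were compared for Hes5 and for the genes with the strongest calls in each direction that have an entry, Htr3b and Mzt1. They were searched on both strands for GTGGGAA, a form of the sequence Rbpj binds, with no other motif searched. The windows are chr4:154960673-154960922 on the plus strand for Hes5, chr9:48964991-48965240 on the minus strand for Htr3b and chr14:99046137-99046386 on the minus strand for Mzt1. Each is written 5′ to 3′ along its gene, and capitals mark the motif or its reverse complement.
Hes5: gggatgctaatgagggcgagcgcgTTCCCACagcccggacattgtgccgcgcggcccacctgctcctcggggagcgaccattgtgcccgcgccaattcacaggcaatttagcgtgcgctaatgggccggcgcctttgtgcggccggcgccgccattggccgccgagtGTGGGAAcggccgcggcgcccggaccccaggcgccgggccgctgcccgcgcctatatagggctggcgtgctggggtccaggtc
Htr3b: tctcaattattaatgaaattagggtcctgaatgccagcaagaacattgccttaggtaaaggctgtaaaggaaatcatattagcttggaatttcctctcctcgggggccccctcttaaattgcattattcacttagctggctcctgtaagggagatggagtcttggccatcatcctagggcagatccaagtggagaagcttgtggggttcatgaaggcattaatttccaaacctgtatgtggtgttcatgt
Mzt1: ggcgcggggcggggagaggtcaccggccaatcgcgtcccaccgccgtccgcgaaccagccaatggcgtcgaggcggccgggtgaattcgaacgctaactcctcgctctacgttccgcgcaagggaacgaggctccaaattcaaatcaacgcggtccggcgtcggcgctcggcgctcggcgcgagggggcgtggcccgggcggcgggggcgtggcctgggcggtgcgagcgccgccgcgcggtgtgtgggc
The Hes5 window holds 2 matches, which begin 226 and 83 bases before the start, and the windows of Htr3b and Mzt1 hold none. A match was present in 7 of the 136 called genes with an entry (5.15%), in 831 of 12476 tested genes (6.66%), in 3 of 12 Notch targets (25%) and in 5.42% of all 32851 windows in the RefSeq table. The shares of genes count a match in any window of the gene, so that of called genes compares with the 6.66% of tested genes and was not above it. The 5.42% is a share of single windows. Where a gene has several windows, a window with a match was preferred for display. GC content was 74.0% in the Mzt1 window, 71.6% in that of Hes5 and 44.0% in that of Htr3b.

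The 5 rises with the smallest p-values lay side by side on chromosome 9. Htr3a was measured at 3.42, 4.91 and 4.52 CPM in wildtype and at 10.8, 10.3 and 9.93 in exposed knockout. The groups did not overlap, and Htr3a was 2.43-fold higher (log2 fold change 1.28 ± 0.15, adjusted p = 2.06e-05). Htr3b, the partner subunit of the same receptor, had no count in the 3 wildtype libraries and 81, 88 and 112 counts in the exposed knockout. Its level was at least 101-fold higher, taking 3 counts over the wildtype group as the floor (adjusted p = 5.54e-10). Such floors and the intervals below cover counting error only. The unexposed knockout held 250 Htr3b counts in all and the exposed wildtype 1. The count filter, described below, thus kept Htr3b only through the knockout groups, which largely fixed its direction.

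Usp28, a deubiquitinase that stabilises proteins of the DNA damage response, rose from 17.9, 22.8 and 16.9 CPM to 39.5, 42.6 and 41.5. Zbtb16, a zinc finger transcription factor, rose from 17.8, 21.5 and 15.9 CPM to 40.0, 37.9 and 37.7. Neither gene's groups overlapped, and the log2 fold changes were 1.11 ± 0.10 (adjusted p = 2.6e-07) and 1.07 ± 0.11 (adjusted p = 2.35e-06). The predicted gene Gm32335 went from 0 counts to 80, at least 28.8-fold higher. With 66 counts in unexposed knockout and 4 in exposed wildtype, Gm32335 too was kept through the knockout groups, so its direction was largely fixed. The annotation places it across Htr3a on the other strand. Whether counting used strand is not stated in the labels or notes, so its reads cannot be assigned to either gene.

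Zbtb16, Gm32335, Htr3a, Htr3b and Usp28 follow each other in the annotation's gene order, with 1 untested predicted gene among them. The tested genes on either side did not pass: Nnmt, a methyltransferase, had a log2 fold change of 0.12, Zw10, of the kinetochore, 0.11 and Rbm7, of the nuclear exosome, −0.21. Drd2, farther along the same chromosome, was at −0.49 (adjusted p = 0.258). In the unexposed knockout Htr3a and Usp28 were near their levels in the exposed knockout, at 9.41 to 10.6 and 39.1 to 44.9 CPM. In exposed wildtype they were at 5.18 to 6.66 and 18.5 to 21.8 CPM. Zbtb16 was at 31.0, 35.1 and 26.4 CPM in the unexposed knockout, above all wildtype and below all exposed knockout libraries, and the test of exposure in knockout did not pass for it (log2 fold change 0.32 ± 0.10, adjusted p = 0.157). The interaction terms of Htr3a, Htr3b, Usp28 and Zbtb16 had adjusted p-values from 0.833 to 0.988. Of the remaining serotonin genes tested, the brain receptor Htr2c gave 0.12 (adjusted p = 0.503) and Htr1b, a receptor on serotonin terminals, −0.33 (adjusted p = 0.179). Tph1, described below, was the only further one of the 19 tested to pass.

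Mzt1, a small subunit of the gamma-tubulin ring complex that nucleates microtubules, showed the fall with the smallest p. It was measured at 112, 110 and 121 CPM in wildtype and at 43.9, 46.1 and 40.6 in exposed knockout. The lowest wildtype library stood well above the highest exposed knockout library, and Mzt1 was 2.62-fold lower (log2 fold change −1.39 ± 0.07, adjusted p = 8.55e-12). The unexposed knockout lay between 50.5 and 57.0 CPM and the exposed wildtype between 83.2 and 93.6. Each of those single differences from wildtype also passed the test, at −1.07 (adjusted p = 1.2e-09) and −0.37 (adjusted p = 0.0155), and the interaction was 0.04 (adjusted p = 0.98). The other 11 tested members of the complex did not pass. Tubg1, the gamma-tubulin subunit itself, gave −0.07 ± 0.10.

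On chromosome 14, Mzt1 is flanked by genes that did not pass, among them Bora, an activator of Aurora A kinase, at 0.13 and Dis3, the exosome nuclease, at −0.12. Dach1, a transcriptional repressor located nearby, did fall, from 13, 15.8 and 14.5 CPM to 7.10, 8.96 and 8.61. Its groups did not overlap and its log2 fold change was −0.80 ± 0.14 (adjusted p = 0.00409). In unexposed knockout its difference from wildtype was −0.27 (adjusted p = 1.0) and in exposed wildtype −0.60 (adjusted p = 0.0314).

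**Figure D2:**
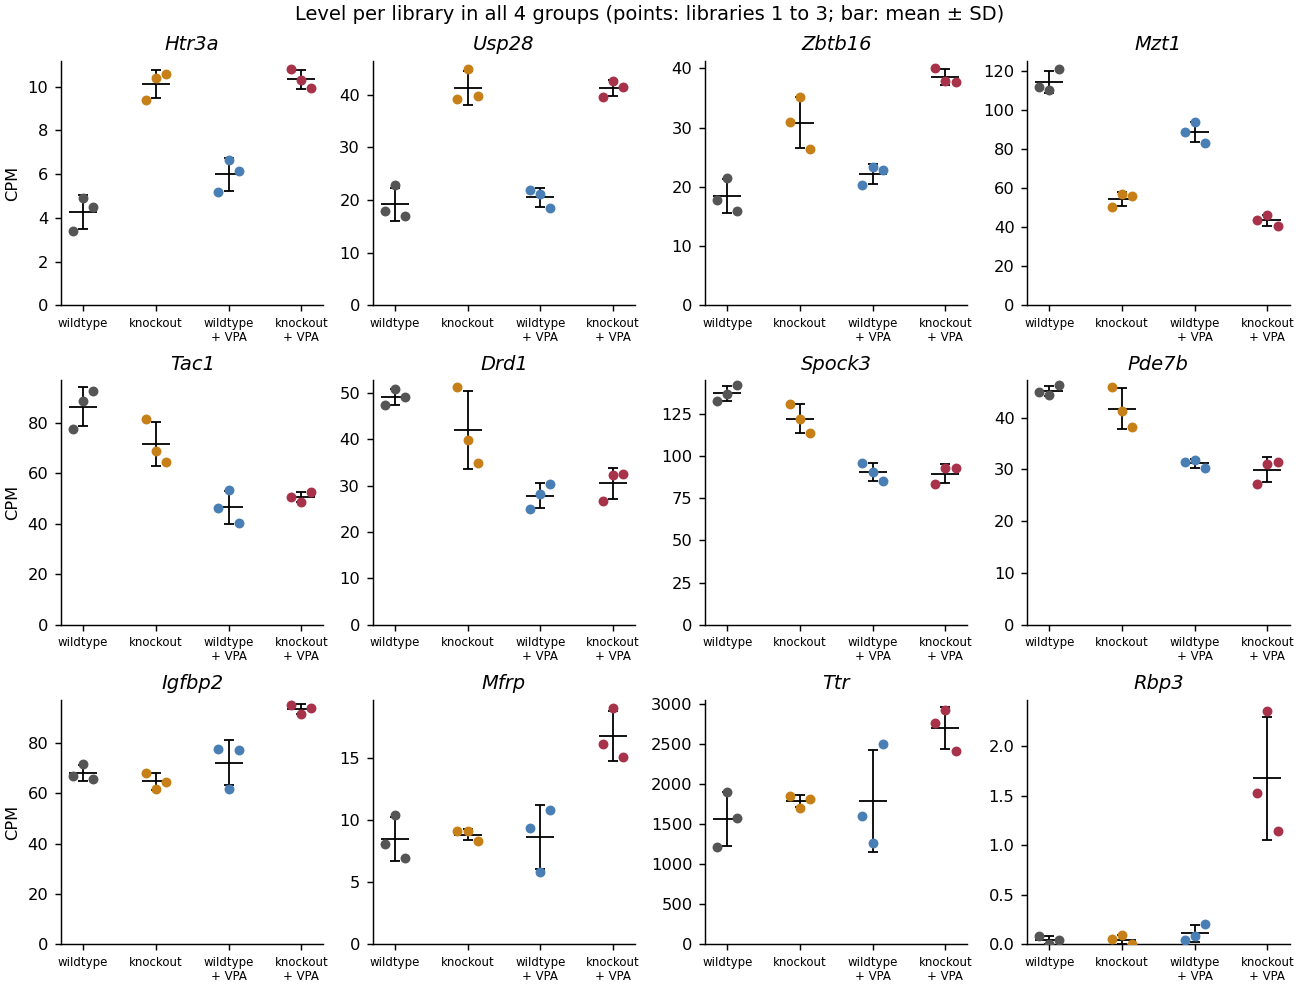
CPM of 12 genes in each library of the 4 groups, with the mean ± SD as bars. For Htr3a, Usp28 and Mzt1 the knockout groups lie together apart from the wildtype groups, for Tac1, Drd1, Spock3 and Pde7b the exposed groups lie together below unexposed wildtype, and Igfbp2, Mfrp and Rbp3 are highest in the exposed knockout libraries.

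Genes of striatal projection neurons, the GABA-releasing output cells of the striatum, were lower in exposed knockout. Of 8 tested markers of direct-pathway neurons, 7 had a lower fitted value, 2 fell past the test and the median log2 fold change was −0.53. All 7 tested indirect-pathway markers were lower, with a median of −0.49, but none passed. Of 18 markers shared by both types, 18 were lower, with a median of −0.35. Of these 4 fell past the test and 15 lay below wildtype without overlap, against 0.717% and 11.0% of all tested genes. The lists are descriptions, since they were chosen with earlier results in view, and in whole tissue fewer cells of a type and less RNA per cell cannot be told apart.

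Tac1, which encodes the precursor of substance P, was at 77.7, 88.7 and 92.7 CPM in wildtype and at 50.7, 48.7 and 52.5 in exposed knockout. Drd1, the dopamine receptor of direct-pathway neurons, was at 47.4, 50.9 and 49.1 CPM in wildtype and at 26.7, 32.4 and 32.5 in exposed knockout. For both genes every exposed knockout library lay below every wildtype library. The log2 fold change was −0.77 ± 0.10 for Tac1 (adjusted p = 0.000227) and −0.68 ± 0.12 for Drd1 (adjusted p = 0.00837). Tac1 also marks some interneurons of the medial lineage, of whose 16 tested markers it was the only member to pass. Without wildtype library 3 the log2 fold change of Drd1 was again −0.68 and the call was lost (adjusted p = 0.0503).

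Penk, the enkephalin precursor of indirect-pathway neurons, was at 238, 251 and 263 CPM in wildtype and at 143, 179 and 171 in exposed knockout. Drd2, their dopamine receptor, was at 38.4, 42.1 and 36.9 CPM in wildtype and at 24.1, 26.7 and 32.6 in exposed knockout. Neither gene's groups overlapped, yet neither passed, with log2 fold changes of −0.61 ± 0.17 (adjusted p = 0.14) and −0.49 ± 0.19. Penk spread from 173 to 290 CPM in unexposed knockout, a group that enters the estimate of the spread. Pde10a, the phosphodiesterase concentrated in striatal neurons, gave −0.60 ± 0.14 (adjusted p = 0.0655).

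The shared striatal markers that fell were Rxrg, a retinoid receptor (log2 fold change −0.41, adjusted p = 0.0288), Foxp1 (−0.35, adjusted p = 0.0235) and Bcl11b (−0.30, adjusted p = 0.0338), transcription factors of these neurons, and Arpp21, a cAMP-regulated phosphoprotein (−0.27, adjusted p = 0.0489). These 4 calls were near the threshold. Over the leave-outs of each compared library their adjusted p ranged from 0.0389 to 0.129 for Rxrg, 0.0318 to 0.12 for Foxp1, 0.0488 to 0.169 for Bcl11b and 0.0812 to 0.15 for Arpp21. The list's median, in contrast, stayed between −0.41 and −0.29 in these leave-outs. The mean log2 CPM of the list was 6.74, 6.77 and 6.72 in the wildtype libraries and 6.28, 6.42 and 6.48 in exposed knockout. It was 6.84, 6.5 and 6.46 in unexposed knockout and 6.21, 6.37 and 6.34 in exposed wildtype, so unexposed knockout spanned the gap between the others.

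Transcription factors of the ventral forebrain, which pattern the embryonic ganglionic eminences and persist in their neurons, were lower for 18 of 19 tested genes, with a median of −0.51. Those that fell were Dlx6 (log2 fold change −0.76 ± 0.17, adjusted p = 0.0312), Six3 (−0.70 ± 0.16, adjusted p = 0.0356), Foxp2 (−0.56 ± 0.12, adjusted p = 0.0204) and Foxp1. Dlx6, a homeobox gene of GABAergic neurons, was at 7.68, 8.54 and 11.5 CPM in wildtype and 5.51, 5.51 and 5.36 in exposed knockout. Six3, a forebrain homeobox gene, was at 11.8, 11.7 and 15.7 CPM in wildtype and 7.61, 8.57 and 8.04 in exposed knockout. Wildtype library 3 was the highest for both. Without it the adjusted p was 0.226 for each gene, and the list's median moved to −0.37. Of the 6 leave-outs, Dlx6 passed in 2, Six3 in 1 and Foxp2 in 3, with adjusted p up to 0.226, 0.226 and 0.123.

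That library stood apart for several regional lists. Its mean log2 CPM was 3.94 for olfactory bulb and neurogenesis genes, against 2.89 and 2.92 in the other wildtype libraries, and 3.89 for hypothalamic neuropeptides, against 2.23 and 2.81. Eomes, a factor of bulb projection neurons and their progenitors, was at 0.603, 0.22 and 9.81 CPM in wildtype, and Oxt, the oxytocin precursor, at 0.241, 5.02 and 28.7. The olfactory list's median of −0.30 became 0.03 without wildtype library 3. Its part in the falls of other regional genes was not tested beyond the leave-outs.

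**Figure D3:**
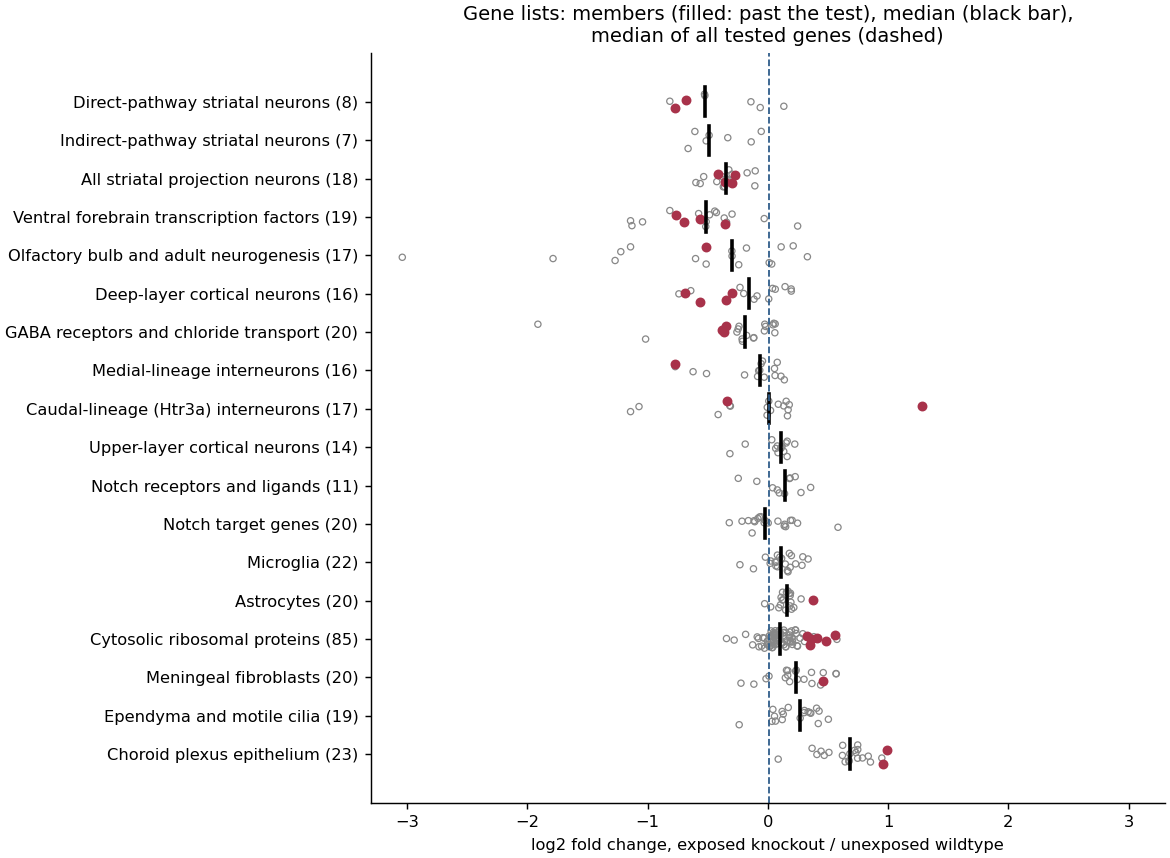
Members of 18 gene lists by log2 fold change, exposed knockout over unexposed wildtype, with members past the test filled, the list median as a black bar and the median of all tested genes dashed. Striatal and ventral forebrain lists lie to the left of 0, choroid plexus genes to the right and the Notch lists around it.

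Several other neuronal genes fell in every setting tried. Spock3, a secreted proteoglycan, went from 133, 137 and 142 CPM to 83.3, 92.8 and 93.0. Pde7b, a cAMP phosphodiesterase enriched in striatum, went from 44.9, 44.3 and 46.2 CPM to 27.1, 31.1 and 31.5. In neither did any library of the groups overlap, and the log2 fold changes were −0.61 ± 0.07 (adjusted p = 1.83e-05) and −0.59 ± 0.08 (adjusted p = 0.000266). Synpr, a synaptic vesicle protein, went from 173, 173 and 207 CPM to 119, 132 and 138 (log2 fold change −0.51 ± 0.08, adjusted p = 0.00326).

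Neto2, an auxiliary subunit of kainate receptors, fell with a log2 fold change of −0.54 ± 0.09 (adjusted p = 0.00191), and Anln, an actin-binding protein also found in myelin, with −0.58 ± 0.10 (adjusted p = 0.00412). Osbpl8, a lipid transfer protein, was at 81.5, 80.7 and 85.2 CPM in wildtype and at 58.8, 58.9 and 58.5 in exposed knockout, a fall of 0.49 ± 0.07 (adjusted p = 0.000452). Trim23, a ubiquitin ligase, fell by 0.50 ± 0.08 (adjusted p = 0.00334) and Plppr5, a membrane protein related to lipid phosphatases, by 0.46 ± 0.08 (adjusted p = 0.00409). Pde7b, Neto2, Osbpl8, Trim23 and Plppr5 were chosen for naming after their values were seen.

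Among genes at low level, Gpr139, an orphan receptor of the habenula and striatum, had the largest fall of a named gene after Mzt1, from 2.81, 3.91 and 4.04 CPM to 0.908, 1.25 and 1.93 (log2 fold change −1.36 ± 0.25, adjusted p = 0.00837). Tacr3, the neurokinin B receptor, went from 2.69, 2.31 and 2.82 CPM to 1.02, 1.49 and 1.32 (−1.03 ± 0.25, adjusted p = 0.0413). The groups did not overlap for either gene. Without wildtype library 3 the adjusted p was 0.0576 for Gpr139, and without exposed knockout library 1 it was 0.0672. The call on Tacr3 was lost in each of the 6 leave-outs, with log2 fold changes from −1.15 to −0.91 and adjusted p from 0.0565 to 0.201.

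Deep-layer cortical markers were mixed, with 10 of 16 lower, 4 fallen (0.717% of all tested genes fell) and a median of −0.16. Syt6, a synaptotagmin of corticothalamic neurons, went from 30.6, 29.4 and 34.9 CPM to 17.4, 19.3 and 22.2, without overlap (log2 fold change −0.69 ± 0.11, adjusted p = 0.00164). Tle4, a corepressor of corticothalamic neurons, fell by 0.35 ± 0.07 (adjusted p = 0.0223, and 0.051 to 0.078 over the leave-outs). Foxp2 and Bcl11b, also on the striatal or ventral lists, were the others. None of 14 upper-layer markers passed, and their median was 0.11.

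Genes of GABA receptors and chloride transport were lower for 16 of 20 tested members, with a median of −0.19. In all 3 members fell, against 0.717% of all tested genes, among them subunits of the GABA-A receptor, the chloride channel of fast inhibition. The log2 fold changes were −0.37 for Gabra4 (adjusted p = 0.0152), which is prominent in striatum and thalamus, and −0.38 for Gabra5 (adjusted p = 0.031), which is prominent in hippocampus. They passed in 3 and 2 of the 6 leave-outs, with adjusted p up to 0.0732 and 0.22. With an offset for GC content and length, described below, the median was −0.11, Gabra5 still passed (adjusted p = 0.0401) and Gabra4 did not (adjusted p = 0.0695).

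Interneuron genes other than Htr3a and Tac1 mostly did not pass. Of 17 caudal-lineage markers, Cnr1, the cannabinoid receptor, fell by 0.34 (adjusted p = 0.028, with 2 of 6 leave-outs past the test) and the list's median was 0.01. Vip was at 24.1 ± 2.11 CPM in wildtype and 24 ± 1.69 in exposed knockout, Pvalb at 61.0 ± 1.58 and 59.1 ± 7.37, Sst at 172 ± 4.08 and 163 ± 14.6 and Npy at 50 ± 4.58 and 50.8 ± 3.69 (SD, n = 3 each). Vip, Pvalb, Sst and Npy thus overlapped between the groups. The medial-lineage list as a whole was slightly lower, with 11 of 16 members lower and a median of −0.06. Of its members 5 lay below wildtype without overlap, against 11.0% of all tested genes. Its mean log2 CPM was 5.55 to 5.67 in wildtype and 5.42 to 5.46 in exposed knockout.

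Genes of the choroid plexus epithelium, which secretes cerebrospinal fluid, were higher in exposed knockout. All 23 tested members had a higher fitted value, with a median log2 fold change of 0.68. Of these 21 lay above wildtype without overlap and 2 rose past the test, against 10.1% and 0.295% of all tested genes. Mfrp, a membrane frizzled-related protein, was at 8.08, 10.4 and 6.95 CPM in wildtype and at 16.1, 19 and 15.1 in exposed knockout, without overlap. It was 1.99-fold higher (log2 fold change 0.99 ± 0.18, adjusted p = 0.0133), and Steap1, a membrane protein of the metalloreductase family, 1.95-fold (0.96 ± 0.22, adjusted p = 0.0338). Trpv4, an osmosensitive ion channel that the epithelium also makes, was not on the list and rose by 0.87 ± 0.20 on the log2 scale (adjusted p = 0.0383).

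Ttr, the thyroid hormone carrier and the epithelium's most abundant transcript, was at 1220, 1900 and 1580 CPM in wildtype and at 2770, 2930 and 2420 in exposed knockout, without overlap, and did not pass (log2 fold change 0.79 ± 0.25, adjusted p = 0.176). The channel genes Aqp1 (0.85, adjusted p = 0.0552) and Kcnj13 (0.68, adjusted p = 0.0544) and the tight junction gene Cldn2 (0.64, adjusted p = 0.0688) were just short of the threshold. Mean log2 CPM of the list was 3.52, 3.98 and 3.75 in wildtype and 4.37, 4.53 and 4.34 in exposed knockout. Unexposed knockout libraries were at 3.82, 3.80 and 3.80, and exposed wildtype at 3.74, 3.32 and 4.16, a spread as wide as the difference between the groups compared. The share of this tissue in each dissection was not measured apart from these genes. The call on Mfrp was lost without wildtype library 1 (adjusted p = 0.0523) or 3 (0.0696) or exposed knockout library 1 (0.0619). Steap1 and Trpv4 passed in 1 of the 6 leave-outs, that of wildtype library 2, with adjusted p from 0.0518 to 0.194 in the others. The list's median stayed between 0.56 and 0.86 over the leave-outs.

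Meningeal fibroblast genes were higher for 17 of 20 members, with a median of 0.23 that was 0.15 without exposed knockout library 1. Genes of ependyma and motile cilia were higher for 18 of 19 (median 0.27), and none of them lay above wildtype without overlap. Their mean log2 CPM was 1.99 in wildtype library 3 against 1.35 and 1.27 in the other wildtype libraries. The median was 0.14, 0.07 and 0.52 without wildtype library 1, 2 and 3. A single member of these lists passed. Igfbp2, which binds insulin-like growth factors and is made in meninges and choroid plexus, was at 67.1, 71.5 and 65.6 CPM in wildtype and at 95.3, 91.6 and 94.0 in exposed knockout. No library overlapped, and Igfbp2 rose by 0.46 ± 0.08 on the log2 scale (adjusted p = 0.00369) in every setting tried. It was at 61.6 to 68.3 CPM in unexposed knockout and 61.9 to 77.5 in exposed wildtype. Igf2, its ligand, overlapped between the groups (1.36 ± 0.61 against 1.99 ± 0.49 CPM).

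Genes otherwise known from photoreceptors and the pineal gland appeared at low counts. Rbp3, the retinoid-binding protein of the space around photoreceptors, had 2, 0 and 1 counts in the wildtype libraries and 27, 49 and 26 in exposed knockout. The ratio of its summed levels was 36.7 with a 95% counting interval from 12.2 to 181, and the test passed in every setting (adjusted p = 0.000128). Unexposed knockout held 3 Rbp3 counts and exposed wildtype 7. Tph1, which makes serotonin in the pineal gland, was at 0.683, 0.386 and 0.347 CPM in wildtype and 1.53, 2.87 and 0.835 in exposed knockout, without overlap (log2 fold change 1.85 ± 0.43, adjusted p = 0.0332).

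Of 13 retina and pineal genes listed, 5 had enough counts to be tested and all 5 were higher. The others of these were Aanat, the melatonin pathway enzyme (log2 fold change 1.11, adjusted p = 0.229), Sag, the photoreceptor arrestin (0.58, adjusted p = 0.172), and Otx2 (0.62, adjusted p = 0.172), which the choroid plexus also makes. Crx and Asmt, which mark these cells, were too low to test. The count filter keeps a gene that is high enough in a single group, and Rbp3 had few counts outside exposed knockout. The direction of such a gene was largely fixed by the filter, so the count of 5 higher is a description and no support for a rise. Outside the list, and chosen after their values were seen, the phototransduction gene Gnb3 had 95 counts against 8 in wildtype (ratio 12.8, 95% interval 6.24 to 30.5), and Tulp1, a photoreceptor protein, 41 against 3 (ratio 14.7, 4.7 to 74.4). Of the Gnb3 counts, 65 came from exposed knockout library 2. Without that library the log2 fold change went from 3.61 to 2.56 for Gnb3 (adjusted p = 0.0778) and from 1.85 to 1.27 for Tph1 (adjusted p = 0.175). That of Tulp1, 3.70, was 3.08 without wildtype library 1 and 4.65 without wildtype library 2. Tph1, Gnb3 and Tulp1 each passed in 2 of the 6 leave-outs. Gnb3 and Tulp1 were also low outside exposed knockout, with 11 and 5 counts in unexposed knockout and 19 and 4 in exposed wildtype. The filter thus largely fixed their direction too.

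Ribosomal protein genes were higher for 72 of 85 tested members, with a median of 0.10, and 6 rose, against 0.295% of all tested genes. Rps29 was at 371, 389 and 425 CPM in wildtype and 659, 521 and 566 in exposed knockout (log2 fold change 0.56 ± 0.10, adjusted p = 0.00881). Rps28 was at 180, 177 and 200 CPM in wildtype and 281, 241 and 260 in exposed knockout (0.49 ± 0.08, adjusted p = 0.00369). Both had no overlap, as had Rpl37 (0.41), Rpl38 (0.36), Rpl37a (0.35) and Rpl36a (0.33). These genes have near-identical pseudogene copies that can share reads, so their values are uncertain. Exposed knockout library 1 was the highest for all 6, and without it the median of the list was 0.04 and Rps28 alone passed.

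The same library held the highest share of counts from the mitochondrial genome, 18.62%, against 13.53% in the lowest library of its group and 12.49% to 14.38% in wildtype. The mean log2 CPM of mitochondrial protein genes was 11.43 in it and 10.78 and 10.75 in the others of its group. None of the 13 passed, and their median of 0.27 was 0.06 without that library. Of the mitochondrial transfer RNAs, mt-Th, for histidine, rose from 4.42, 4.46 and 5.60 CPM to 17.3, 9.48 and 10.8 (log2 fold change 1.36 ± 0.24, adjusted p = 0.0191). Without any 1 of the wildtype libraries its adjusted p was between 0.0608 and 0.0633. The part of RNA quality or dissection in the ribosomal and mitochondrial values was not tested.

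Astrocyte genes were higher for 19 of 20 members, with a median of 0.16. Of them 11 lay above wildtype without overlap, against 10.1% of all tested genes. Exposed knockout library 1 had the highest mean log2 CPM of the list, 8.16 against 7.98 and 7.97 in the others of its group, and without it the median was 0.08. Slc7a10, a serine transporter of astrocytes, rose from 35.5, 38.2 and 32.6 CPM to 46.1, 46.0 and 45.7 (log2 fold change 0.38 ± 0.09, adjusted p = 0.0409). Gfap, the astrocyte filament protein, gave 0.19 ± 0.08 (adjusted p = 0.244). Microglia genes had a median of 0.11 with no member past the test. Mature oligodendrocyte genes had a median of −0.06, and of 20 tested Anln and Ermn, a myelin cytoskeletal protein, fell (Ermn by 0.35, adjusted p = 0.0404). Slc7a10 passed in 1 of the 6 leave-outs and Ermn in 2, and without wildtype library 3 their adjusted p was 0.22 and 0.223.

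Taf15, an RNA-binding protein, rose. It was at 43.9, 45.0 and 51.3 CPM in wildtype and 65.7, 64.2 and 61.9 in exposed knockout (log2 fold change 0.45 ± 0.08, adjusted p = 0.00409), without overlap, and was chosen after its values were seen. Ddit4, a stress-induced inhibitor of mTOR, rose by 0.50 ± 0.10 (adjusted p = 0.0225) and Per1, a clock gene also induced by activity and glucocorticoids, by 0.41 ± 0.08 (adjusted p = 0.0208). Per1 passed in 1 of the 6 leave-outs and Ddit4 in 2, with adjusted p of 0.101 and 0.106 without exposed knockout library 1. Per1 was the only one of 27 immediate early genes to pass, and Per1, Ddit4 and Zbtb16 were the 3 of 19 glucocorticoid and stress genes. Fos, the standard marker of recent activity, was at 11.3, 9.20 and 7.29 CPM in wildtype and 17, 19.7 and 12.7 in exposed knockout, without overlap (0.82 ± 0.20, adjusted p = 0.0611).

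Several further lists held few or no called genes. None of 17 histone deacetylases, the targets of valproic acid, passed, and Hdac1 was at 26.6 ± 0.89 CPM in wildtype and 27.6 ± 0.86 in exposed knockout. None of 35 Wnt genes, 46 potassium channels, 78 nuclear subunits of oxidative phosphorylation or 20 brain endothelial genes passed. With 1.01% of all tested genes called, lists of these sizes can hold no call without being unlike genes at large. An absence of effect is thus not shown by these counts. Of 50 autism risk genes 2 fell, Foxp1 and Foxp2, which are also on the ventral forebrain list. The median log2 fold changes of these lists lay between −0.02 and 0.09.

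The combined difference was then set beside each factor alone. Knockout against wildtype without exposure gave 7 genes past the test (0.0389% of those tested). Valproic acid gave 161 in wildtype (0.895%) and 10 in knockout (0.0556%), and knockout against wildtype after exposure gave 9 (0.05%). These comparisons share libraries with the combined one, so their overlap is not a result. No gene passed the interaction test of a departure from additivity on the log2 scale with edgeR (0% of those tested), and 1075 had an unadjusted p below 0.05, which is 5.97%.

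By gene, the combined values of Htr3a, Usp28 and Zbtb16 of 1.28, 1.11 and 1.07 stood beside knockout values of 1.25, 1.11 and 0.75 and exposure values in wildtype of 0.50, 0.10 and 0.27. The knockout value passed for all 3 genes and the exposure value for none. Tac1, Drd1 and Syt6, at −0.77, −0.68 and −0.69 combined, had knockout values of −0.27, −0.22 and −0.27, none past the test, and exposure values in wildtype of −0.89, −0.82 and −0.86, all past it. Spock3 and Pde7b passed for exposure in wildtype (−0.60 and −0.54) and in knockout (−0.44 and −0.48). Igfbp2, at 0.46 combined, had −0.07 for knockout and 0.09 for exposure in wildtype, neither past the test, and 0.53 for exposure in knockout (adjusted p = 0.00384). Its interaction of 0.44 did not pass (adjusted p = 0.833). Rbp3 passed for exposure in knockout (adjusted p = 0.00177) and for knockout after exposure (adjusted p = 0.000962), with an interaction that did not pass (adjusted p = 0.833). The count filter kept Rbp3 through exposed knockout, the group that both comparisons share, so these passes are no separate support for its rise.

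Medians of the lists were set out in the same way. The shared striatal list had −0.35 combined, −0.14 for knockout and −0.43 for exposure in wildtype. The choroid plexus list had 0.68 combined, 0.07 for knockout and 0.02 for exposure in wildtype, with a median interaction of 0.53 and no member past that test. An exposure value past the threshold in 1 genotype and not in the other is not shown to differ between them.

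**Figure D4:**
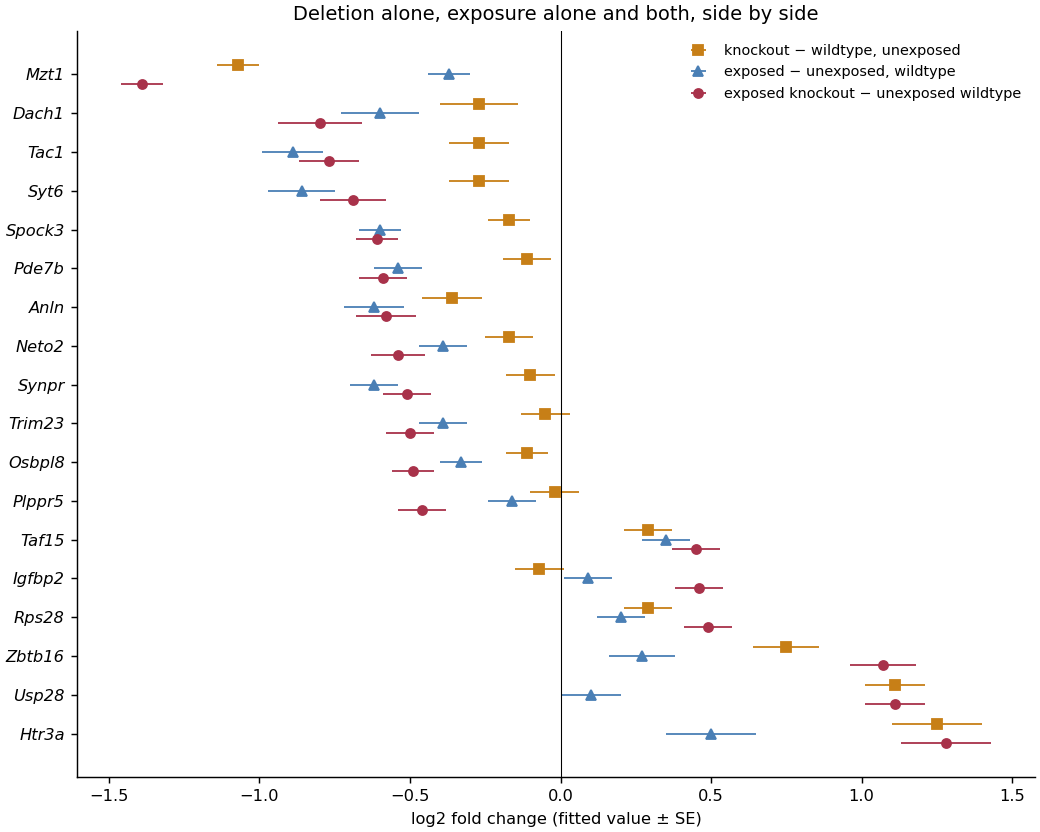
Fitted log2 fold change ± SE of 18 genes past the test in every setting, for deletion alone, exposure alone and both, leaving out Rbp3, Gm32335 and Htr3b, which have few or no wildtype counts. For Mzt1, Zbtb16, Usp28 and Htr3a the square for deletion lies nearest the combined value, for Tac1, Syt6, Spock3 and Pde7b the triangle for exposure in wildtype does, and for Igfbp2 both lie near 0.

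The called genes differed in base composition. The longest transcript of genes that rose had a median GC content of 55.7% (53 genes) and of genes that fell 42.1% (128 genes with a value), against 49.7% over 17678 tested genes. In 5 equal bins of GC content from lowest to highest, the median log2 fold change of all genes was −0.10, −0.03, 0.02, 0.06 and 0.09. In knockout against wildtype without exposure it ran from 0.01 to −0.03, and for exposure in knockout from −0.12 to 0.12. With an offset for GC content and length 52 genes passed, of which 46 were among the 182. The median of the shared striatal list became −0.41, that of choroid plexus 0.68 and that of ribosomal proteins 0.06. Tac1, Drd1, Rxrg, Bcl11b, Arpp21, Six3, Dlx6, Syt6 and Mfrp still passed, and Foxp1, Foxp2, Dgkb, a diacylglycerol kinase, and Steap1 did not (adjusted p = 0.0877, 0.0845, 0.105 and 0.0556). With the offset the log2 fold changes of these 4 were −0.33, −0.50, −0.37 and 0.96, against −0.35, −0.56, −0.47 and 0.96 without it. Further losses among the genes above included Tacr3, Cnr1, Trpv4, Tph1, Tulp1, Slc7a10, Ermn, Per1, Ddit4, Rpl36a, Rpl37a and Rpl38, with adjusted p from 0.0555 to 0.239. All kept their direction, and the log2 fold change was 1.86 for Tph1 (1.85 without the offset) and 0.21 for Rpl38 (0.36 without it). Whether composition in the libraries or the genes' biology moves with the groups was not tested.

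The number of calls changed as single libraries were left out, which leaves 1 of the compared groups with 2 libraries. Of the 182 genes, 22 passed in each of the 6 fits that left out 1 compared library (9 higher, 13 lower), 33 passed in none of them, and 21 passed in all 25 settings tried. Those 21 were Mzt1, Dach1, Tac1, Syt6, Spock3, Pde7b, Anln, Neto2, Synpr, Trim23, Osbpl8 and Plppr5, lower, and Taf15, Igfbp2, Rps28, Zbtb16, Usp28, Htr3a, Rbp3, Gm32335 and Htr3b, higher. Without wildtype library 3 (WT replicate 3 in the labels), 32 genes passed, and without exposed knockout library 1, 38. Exposed knockout library 3 also differed from the rest of its group in Xist, the X-inactivation transcript of female cells, with 6 counts, as did exposed wildtype library 3 with 12, against 5919 to 10767 in the other 10 libraries. A sex term was inferred from Xist, as the labels give no sex. It set exposed knockout library 3 and exposed wildtype library 3 apart from the other 10, so it varied within the exposed groups only. With this term 45 genes passed, 42 of them among the 182. Tac1, Drd1, Syt6, Rxrg and Foxp2 passed with it. Six3, Dlx6, Bcl11b, Arpp21, Foxp1, Mfrp, Steap1, Gabra4 and Gabra5 did not, with adjusted p from 0.0507 for Mfrp to 0.16 for Arpp21. Their direction was kept, with log2 fold changes such as −0.71 for Six3 and 0.95 for Mfrp. Without both of those libraries 151 passed, 104 of them shared.

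**Figure D5:**
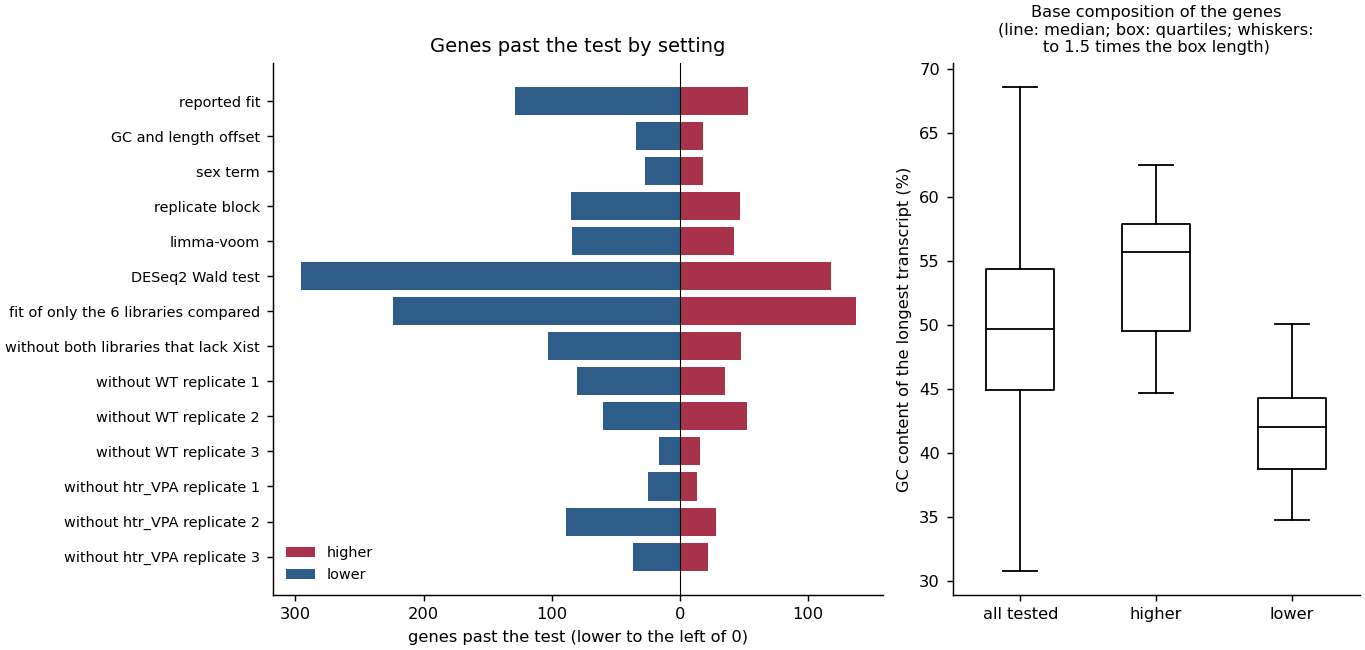
Left, genes past the test in exposed knockout against unexposed wildtype under 14 settings, with lower genes to the left of 0 and higher to the right; right, GC content of the longest transcript for all tested genes, genes that rose and genes that fell. The reported fit has 53 higher and 129 lower genes, the fit without WT replicate 3 has 16 and 16, and the box of the genes that fell lies below that of all tested genes.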

How the data were processed

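RNA was measured in 12 mouse brain libraries, 3 in each of 4 groups. Ribosomal RNA was depleted before library construction, per the labels' protocols. The deposited table holds the authors' raw counts per Ensembl gene for 56748 genes, of which 22955 had no count in any library. HISAT2 and GRCm39 are named without versions, per the submitters' processing notes, but not the counting program, the annotation or the use of strand. Symbols for 52073 identifiers (99.51% of counts) and gene order came from an annotation of the earlier build GRCm38, so positions of genes are not printed. Only the upstream windows of Hes5, Htr3b and Mzt1 are given with positions, on GRCm38.p6 rather than GRCm39.

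Genes were kept with filterByExpr, scaled with TMM (factors 0.93 to 1.02) and fitted with a mean per group over all 12 libraries by edgeR 4.0.16 (glmQLFit, robust, two-sided glmQLFTest) in R 4.3.3. The common biological coefficient of variation was 0.09 on 8 residual degrees of freedom, and Benjamini-Hochberg adjustment covered all 17995 genes. A standard error is the absolute log2 fold change over the square root of F. Python 3.11.15, numpy 2.4.6, pandas 2.3.3, scipy 1.17.1, matplotlib 3.10.9, limma 3.58.1 and DESeq2 1.42.0 were also used, and the fit was tested on simulated data. Counts over a group of 0 were replaced by a floor of 3, and ratios have exact 95% intervals.

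Named genes are the 15 largest rises and 15 largest falls among called genes whose groups did not overlap and averaged 1 CPM or more, up to 5 called members per list, and fixed genes (the Notch receptors, Rbpj, Htr3a, Htr3b, Usp28, Zbtb16, Mzt1, Drd1, Tac1, Ttr, Igfbp2, Rbp3). Other genes appear as list members or neighbours, or as stated. The comparison, the 43 gene lists and this rule were chosen with earlier results of these data known. Replicate numbers in the labels do not pair the samples. Alternatives covered scaling, filters, tools, a replicate block, a sex term inferred from Xist counts, the libraries fitted and each library left out. The GC and length offset was chosen after seeing the data. Some named items are not reported here.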

Additional observations from a re-analysis of the deposited data

How the results depend on the processing

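Against 182 genes in the reported fit, 649 passed with no count filter (of 33793 tested), 414 with DESeq2's Wald test, 361 in a fit of only the 6 libraries compared, 45 with a sex term and 52 with the GC and length offset, and 17 of the 182 had a log2 fold change of 1 or more in size. The counts differed by less than 1.5 times with other scalings (154 to 208), a filter of 1 CPM (166), limma-voom (126) and without both libraries low in Xist (151). Leaving out each library in turn gave 32 to 370 genes, the lowest without WT replicate 3 and the highest without WT_VPA replicate 3, and arms left with 2 libraries rely on the spread of the others. Interaction calls numbered 0 in the reported fit, 5 with no count filter, 4 without both libraries low in Xist and 0 to 1 over the single leave-outs.

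With the replicate number as a block 132 genes passed, 124 of them shared. The correlations of same-numbered deviations were 0.02, −0.05 and 0.03, and not every library correlated best with its own number, so the numbers were not taken as pairs. No called gene named here changed direction under the alternatives. The uncalled Notch1, Notch4 and Rbpj changed sign in some of them, as did list medians within 0.05 of 0 and, without WT replicate 3, the olfactory bulb median (−0.30 to 0.03). With 3 libraries a group, the smallest changes called had log2 fold changes near −0.26 and 0.30.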
